A study of Mus musculus with 3 samples.

Results

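The replication-dependent histone genes are the clustered genes that supply the bulk of histone protein while DNA is copied. They were taken as the genes with an annotated protein-coding transcript whose symbol begins with Hist1h, Hist2h, Hist3h or Hist4h. The rule gave 67 genes of 21901 genes with such a transcript. Cluster Hist1 on chromosome 13 held 54 of them, Hist2 on chromosome 3 held 10, Hist3 on chromosome 11 held 2 and Hist4 on chromosome 6 held 1. By protein class there were 6 genes for linker histone H1 and, for the core histones, 18 for H2A, 18 for H2B, 12 for H3 and 13 for H4.

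RNA was measured in 3 libraries of a single group, labelled replicates 1, 2 and 3. The cells were primary macrophages grown from bone marrow of C57BL/6J mice. Lipid A, the part of bacterial lipopolysaccharide that activates the receptor TLR4, was given at 100 ng/ml for 12 hours and then washed out for 12 hours. A second exposure at the same dose lasted 10 minutes, and the cytosolic fraction was then taken for total RNA sequencing with ribosomal RNA depleted. Age and sex were not recorded, all 3 libraries carry the same donor identifier, and no label says if they came from different animals. There was no untreated, unfractionated or nuclear group, so nothing below is an effect of Lipid A or of fractionation.

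Core histones H2A, H2B, H3 and H4 form the protein spool around which DNA winds, and H1 binds the DNA that enters and leaves it. Replication-dependent histone genes have, as a rule, no introns, and their messages end in a conserved stem-loop instead of a poly(A) tail. Stem-loop binding protein and the U7 small nuclear ribonucleoprotein guide the cut that makes this end, and the messages are destroyed quickly when DNA synthesis stops. Replacement histones are made from genes outside the clusters, from messages with poly(A) tails, in resting cells too. Macrophages from bone marrow cultures are largely, though not wholly, past division. Ribosomal depletion keeps RNAs without a poly(A) tail, which poly(A) selection would lose.

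The stem-loop was searched in the annotated transcripts of GENCODE M21 on mm10, after the stop codon and on the transcript's strand. The pattern was GG, any pair of bases, CTTTT, any base, AG, any pair of bases and CC. It was found in 44 of the 67 genes, between 21 and 58 bases after the stop codon with a median of 31. There were 6 versions of its 16 bases, and 1 of them was shared by 26 genes of classes H1, H2A, H2B and H3. A second version occurred in 7 genes, all for H4. A match is a description of the letters and not a measured end. These sites show the 6 versions, with the stem-loop in capitals, for members whose levels are described below:
Hist2h2aa2, chr3:96239784-96239799, minus strand: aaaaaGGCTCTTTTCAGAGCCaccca
Hist1h1c, chr13:23739512-23739527, plus strand: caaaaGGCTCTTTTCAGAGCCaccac
Hist1h4m, chr13:21812129-21812144, plus strand: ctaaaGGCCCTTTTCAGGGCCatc
Hist1h4b, chr13:23757366-23757381, plus strand: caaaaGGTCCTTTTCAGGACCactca
Hist1h4i, chr13:22040966-22040981, minus strand: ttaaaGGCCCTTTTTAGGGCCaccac
Hist1h2bb, chr13:23747203-23747218, plus strand: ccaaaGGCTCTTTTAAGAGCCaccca
Hist2h2ac, chr3:96220418-96220433, minus strand: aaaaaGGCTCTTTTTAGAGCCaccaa
The stem-loops of Hist2h2aa2 and Hist1h1c, an H2A and an H1 gene on different chromosomes, had the same letters.

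The annotated 3′ ends fell into 4 kinds, and these set the length by which each level is divided. In 22 genes the transcript ended within 100 bases after the stem-loop, the known form of a replication-dependent message. In another 22 it ran more than 100 bases past it, and 11 of those held the poly(A) signal AATAAA or ATTAAA in their last 50 bases. The annotation of 15 genes stopped at the stop codon, so a stem-loop could not be seen. A further 8 genes had annotated bases after the stop codon without a match, among them Hist1h2bc, an H2B gene with 2 exons and a 1156-base transcript. In Hist1h2af and Hist1h2ah those bases numbered 1 and 2, too few to show a stem-loop. Hist2h3b had 37, in which a stem-loop at the median distance would not fit whole. The annotated lengths ran from 312 to 7425 bases.

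Levels are given in TPM, which divide counts by transcript length and scale every library to the same total, from the deposited alignment-based gene table unless another table is named. Expected counts totalled 32108408, 53165872 and 57117456 in replicates 1, 2 and 3. All 8 macrophage marker genes listed were at 10 TPM or more in every library, and every marker listed for T cells, B cells, neutrophils, fibroblasts, erythroid and dendritic cells was below 1 TPM. Replicate 1 stood apart. Malat1, a nuclear noncoding RNA, had 1333, 118 and 152 TPM in replicates 1, 2 and 3. Neat1, another nuclear noncoding RNA, had 66.0, 13.9 and 17.6 TPM. Both were several times higher in replicate 1 than in either other library. Nuclear-encoded protein-coding genes took 34.3% of TPM in replicate 1 and 27.8% in each of the others.

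The histone genes together reached 723.5, 811.4 and 800.3 TPM in replicates 1, 2 and 3, a mean of 778 ± 47.9 (SD, n = 3). They took 17050, 34904 and 36732 expected counts, which was 0.0533%, 0.0657% and 0.0644% of each library's counts on named genes. Replicate 1 had the smallest share by both measures in this table. In the table made directly from the reads the order by TPM turned, with sums of 518, 301 and 230.0 TPM. Protein-coding genes took 24.3%, 10.1% and 8.15% of its TPM. By share of that table's counts replicate 1 was still the smallest, at 0.0517%, 0.0568% and 0.0527% in replicates 1, 2 and 3. In bulk RNA, fewer cells expressing a gene and less of its RNA per cell cannot be told apart.

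Of the 67 genes, 50 had at least 1 TPM in every library, which is 74.6% of them. Among the 22015 nuclear-encoded protein-coding genes the share was 41.4%. At 5 TPM the count was 28 histone genes against a share of 26.2% over protein-coding genes, and at 10 TPM it was 21 against 17.3%. Over all 67 histone genes the median was 5.33 TPM, against 0.16 TPM over all protein-coding genes. Among genes with at least 1 TPM in every library it was 7.38 TPM for histone genes and 8.71 TPM for protein-coding genes. With at least 10 expected counts in every library there were 56 genes, against 50.8% of protein-coding genes.

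Expression was uneven within the family. The 3 highest genes made 29.9%, 26.3% and 29.6% of the summed TPM in replicates 1, 2 and 3, a mean of 28.6 ± 2.02% (SD, n = 3). The 9 highest made 52.2% and the 15 highest 68.4%. Hist2h2aa2, an H2A gene at chr3:96239749-96240276, was first with 107.9, 124.6 and 134.3 TPM in replicates 1, 2 and 3. Hist1h2bc, an H2B gene at chr13:23684199-23692908, was second with 66.9, 51.4 and 56.2 TPM. Hist1h4m, an H4 gene at chr13:21811746-21812147, came next with 41.7, 37.1 and 46.2 TPM. The ranges of these genes did not overlap, so their order held in every library.

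**Figure D1:**
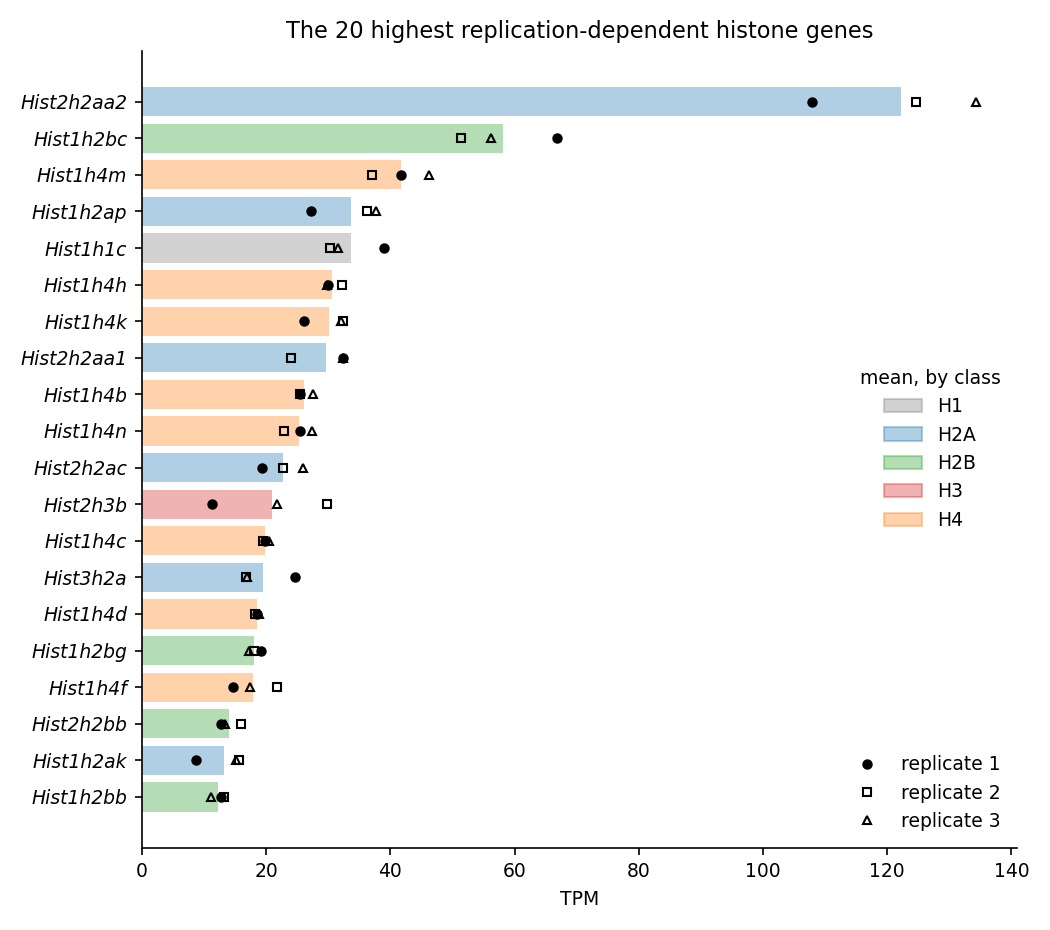
The 20 highest replication-dependent histone genes by mean TPM. Each bar is the mean over 3 libraries on a linear axis from 0, coloured by histone class, and the symbols are the single libraries; Hist2h2aa2 stands apart at 122 TPM.

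H2A was the class with the highest sum, by TPM and by expected counts. Its 18 genes summed to 249.6, 289.2 and 300.7 TPM in replicates 1, 2 and 3, which was 35.9 ± 1.55% of the family (SD, n = 3). Hist2h2aa2 alone made 43.7% of that sum, and 12 of the 18 genes had at least 1 TPM in every library. Hist1h2ap, at chr13:21833026-21833507, had 27.2, 36.2 and 37.7 TPM. Hist2h2aa1, at chr3:96245497-96246082, had 32.4, 23.9 and 32.4 TPM. Hist2h2ac, at chr3:96220361-96220880, had 19.3, 22.7 and 25.98 TPM. The range of Hist2h2aa1 overlapped both others, while Hist1h2ap was above Hist2h2ac in every library. Hist3h2a, at chr11:58954685-58956830, had 24.6, 16.7 and 17.0 TPM and was highest in replicate 1.

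The 18 H2A genes encode 9 different proteins, by translation of their annotated coding sequences. Hist2h2aa1 and Hist2h2aa2 encode the same protein and summed to 152 ± 13.5 TPM, or 54.3 ± 2.61% of class H2A (SD, n = 3). The commonest H2A protein of cluster Hist1 is encoded by 9 genes, which summed to 67.7 ± 12.2 TPM, or 24.1 ± 2.55%. So a pair of genes outweighed 9 genes for a sister protein in each library, at 56.2%, 51.4% and 55.4% against 21.6%, 26.7% and 23.9% of the class. Hist2h2ac made 8.08% of the class and Hist3h2a 7.10%, each with a protein of its own.

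H4 was the second class by TPM, while by expected counts H2B passed it, at 24.3% for H2B and 20.1% for H4. Its 13 genes summed to 224, 230.03 and 240.25 TPM in replicates 1, 2 and 3, or 29.8 ± 1.33% of the family (SD, n = 3). All 13 encode 1 protein of 103 residues, from 12 different coding sequences. The median H4 gene had 18.5 TPM, against 3.13 to 5.26 TPM for the medians of the other classes, and 12 of 13 had at least 1 TPM in every library. The highest gene, Hist1h4m, made 18.0% of the class.

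Several H4 genes were close to each other in level. Hist1h4h had 30.0, 32.2 and 29.9 TPM in replicates 1, 2 and 3. Hist1h4k had 26.1, 32.4 and 32.1 TPM. Hist1h4b had 25.5, 25.4 and 27.6 TPM. The ranges of the first pair overlap, and so do those of the last pair. Hist1h4n had 25.5, 22.9 and 27.3 TPM. Hist1h4c had 19.8, 19.4 and 20.5 TPM. Hist1h4d had 18.6, 18.2 and 18.8 TPM. Hist1h4c was above Hist1h4d in every library. The lowest H4 gene was Hist4h4, the single gene of cluster Hist4, at 0.85, 0.76 and 0.82 TPM.

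H2B genes summed to 156, 163 and 147 TPM in replicates 1, 2 and 3, or 20.0 ± 1.58% of the family (SD, n = 3). Hist1h2bc alone made 37.5% of the class and 13 of 18 genes had at least 1 TPM in every library. The 18 genes encode 11 proteins. Hist1h2bc, Hist1h2bg and Hist1h2be share 1 of them and summed to 78.9 ± 9.06 TPM, or 51.0 ± 6.63% of the class. Of these, Hist1h2bg had 19.1, 18.1 and 17.2 TPM, well under Hist1h2bc in every library. Another protein is encoded by 6 genes, which summed to 37.1 ± 6.54 TPM, or 23.8% of the class. The next H2B genes, each with a protein of its own, were Hist2h2bb at 12.7, 15.96 and 13.5 TPM and Hist1h2bb at 12.7, 13.2 and 11.1 TPM. Their ranges overlapped.

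H3 genes were low. The 12 of them summed to 39.2, 80.6 and 66.0 TPM in replicates 1, 2 and 3, or 7.87 ± 2.28% of the family (SD, n = 3), and 9 had at least 1 TPM in every library. H3 and H4 enter the nucleosome in equal numbers, and the summed TPM of H3 genes in the clusters was below that of H4 genes in each library. Hist2h3b, at chr3:96268654-96269141, was the highest with 11.3, 29.9 and 21.8 TPM, or 33.9% of the class. It was lowest in replicate 1. The 12 genes encode 3 proteins. One is encoded by 7 genes including Hist2h3b and summed to 39.2 ± 15.7 TPM, or 62.3 ± 4.56% of the class, and another by 4 genes with 21.6 ± 4.71 TPM. Of those 4, Hist1h3h had 5.79, 8.43 and 8.31 TPM and Hist1h3i had 5.95, 8.66 and 7.12 TPM, with ranges that overlapped. Coding sequences of H3 genes of equal length were 93.7% to 99.8% identical, against 85.3% to 100% for H4 genes, whose protein is the same in all.

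H1 genes summed to 54.8, 48.5 and 46.4 TPM in replicates 1, 2 and 3, or 6.45 ± 0.978% of the family (SD, n = 3). Each of the 6 encodes its own protein. Hist1h1c, at chr13:23738808-23740367, had 39.1, 30.3 and 31.6 TPM and made 67.4% of the class. Hist1h1e had 7.65, 8.13 and 7.13 TPM. Hist1h1a had 5.28, 5.94 and 5.12 TPM. The order of these genes was the same in every library. Hist1h1b had 1.77, 3.25 and 1.64 TPM, and Hist1h1d had 0.94, 0.95 and 0.90 TPM. By expected counts, which are not divided by length, H1 made 18.6% of the family and H3 6.40%, so H1 was then above H3.

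**Figure D2:**
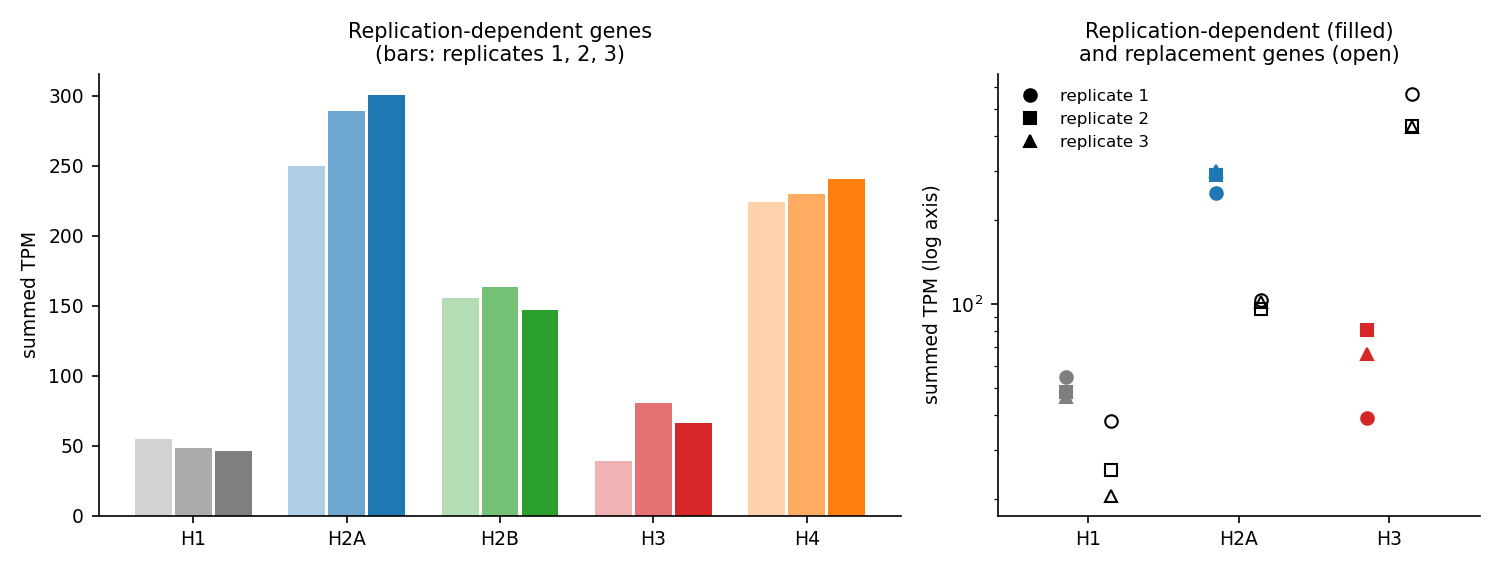
Summed TPM by histone class. Left, the replication-dependent genes of each class, with bars for replicates 1, 2 and 3 on a linear axis from 0; right, on a log axis, filled points for the replication-dependent genes and open points for the replacement genes of the same class, which for H3 lie far above them.

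Some members are close to silent. Hist1h2aa, Hist1h2ao and Hist1h2ba had 0 expected counts in all 3 libraries, that is 3 of 67, while 33.1% of protein-coding genes had 0. Hist1h2aa and Hist1h2ba encode the H2A and H2B variants made in testis. A count of 0 allows up to 3 counts, which is 0.421, 0.186 and 0.194 TPM for Hist1h2aa in replicates 1, 2 and 3, and 0.437, 0.192 and 0.201 TPM for Hist1h2ba. These limits cover counting error only. Hist1h1t, the linker histone of developing sperm, had 3, 0 and 0 counts. For Hist1h2ao the limits were 0.270, 0.123 and 0.122 TPM, but the table made directly from the reads gave it 8.0, 0 and 8.16 counts, so its 0 depends on how shared reads were assigned.

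Near-identical copies limit what single-gene values mean. Every stretch of 100 bases in Hist2h2aa2 also occurs in Hist2h2aa1, so no such stretch is its own, and Hist2h2aa1 has 11.7% of its own. Over all members the median was 65.7% unique stretches of 100 bases, and 7 members were wholly unique at that length. The pair summed to 140.3, 148.5 and 166.7 TPM in replicates 1, 2 and 3, which is 19.5% of the family. In the alignment-based table Hist2h2aa2 had 1435, 3586 and 3955 counts and Hist2h2aa1 had 517, 818 and 1149. The table made directly from the reads gave Hist2h2aa2 1414, 3326 and 3465 counts and Hist2h2aa1 628, 1208 and 1756. Hist2h2aa2 was above Hist2h2aa1 by both. Their summed level on the rescaled TPM of protein-coding genes was 515 in the first table and 472 in the second.

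Other copies behave likewise. Hist1h4m and Hist1h4n, with 11.9% and 19.3% unique stretches, summed to 67.2, 59.96 and 73.6 TPM in replicates 1, 2 and 3. Hist1h2bq and Hist1h2br, with 5.16% and 13.6%, summed to 10.1, 13.9 and 11.4 TPM. The deposited posterior SD of the count, which measures how surely reads were assigned, was at most 5% of the count in every library for 37 of the 56 genes with 10 or more counts. Among those 56 it exceeded 20% for 3 genes: 78.6% for Hist1h2br, 61.3% for Hist2h3c1 and 29.3% for Hist1h2bq. In replicate 1 the deposited interval of Hist1h2br ran from 0.307 to 9.24 TPM. Hist1h2br had 4.32, 6.18 and 5.08 TPM in replicates 1, 2 and 3, and Hist1h2bq had 5.74, 7.74 and 6.27 TPM. The 381-base transcripts of both genes had the same counts, 29.14, 94.61 and 74.38, so reads shared there were divided evenly. Which of the genes those reads came from is uncertain.

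Along the chromosomes, expression was patchy. Cluster Hist1 summed to 504, 563 and 544 TPM in replicates 1, 2 and 3, or 69.0 ± 0.884% of the family (SD, n = 3). Cluster Hist2 summed to 193.5, 230.1 and 238 TPM, or 28.3 ± 1.495%. Hist3 made 2.596% and Hist4 0.1045%. The 10 genes of Hist2 lie within 50.3 kb, and its 4 H2A genes gave 175 TPM, most of its sum.

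Gaps of more than 100 kb divide Hist1 into 4 blocks. The first, chr13:21715763-21837530 from Hist1h2bl to Hist1h2br, holds 18 genes, which summed to 201 ± 25.5 TPM, or 25.8% of the family. The third, chr13:23531050-23764406 from Hist1h4h to Hist1h1a, holds 29 genes with 307 ± 6.92 TPM, or 39.5% (SD, n = 3 each). Of their genes, 14 of 18 and 24 of 29 had at least 1 TPM in every library. The second block, of 5 genes, gave 29.0 ± 3.15 TPM. The fourth, chr13:23933773-23934851, holds only the testis genes Hist1h2ba and Hist1h2aa, both at 0 counts.

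**Figure D3:**
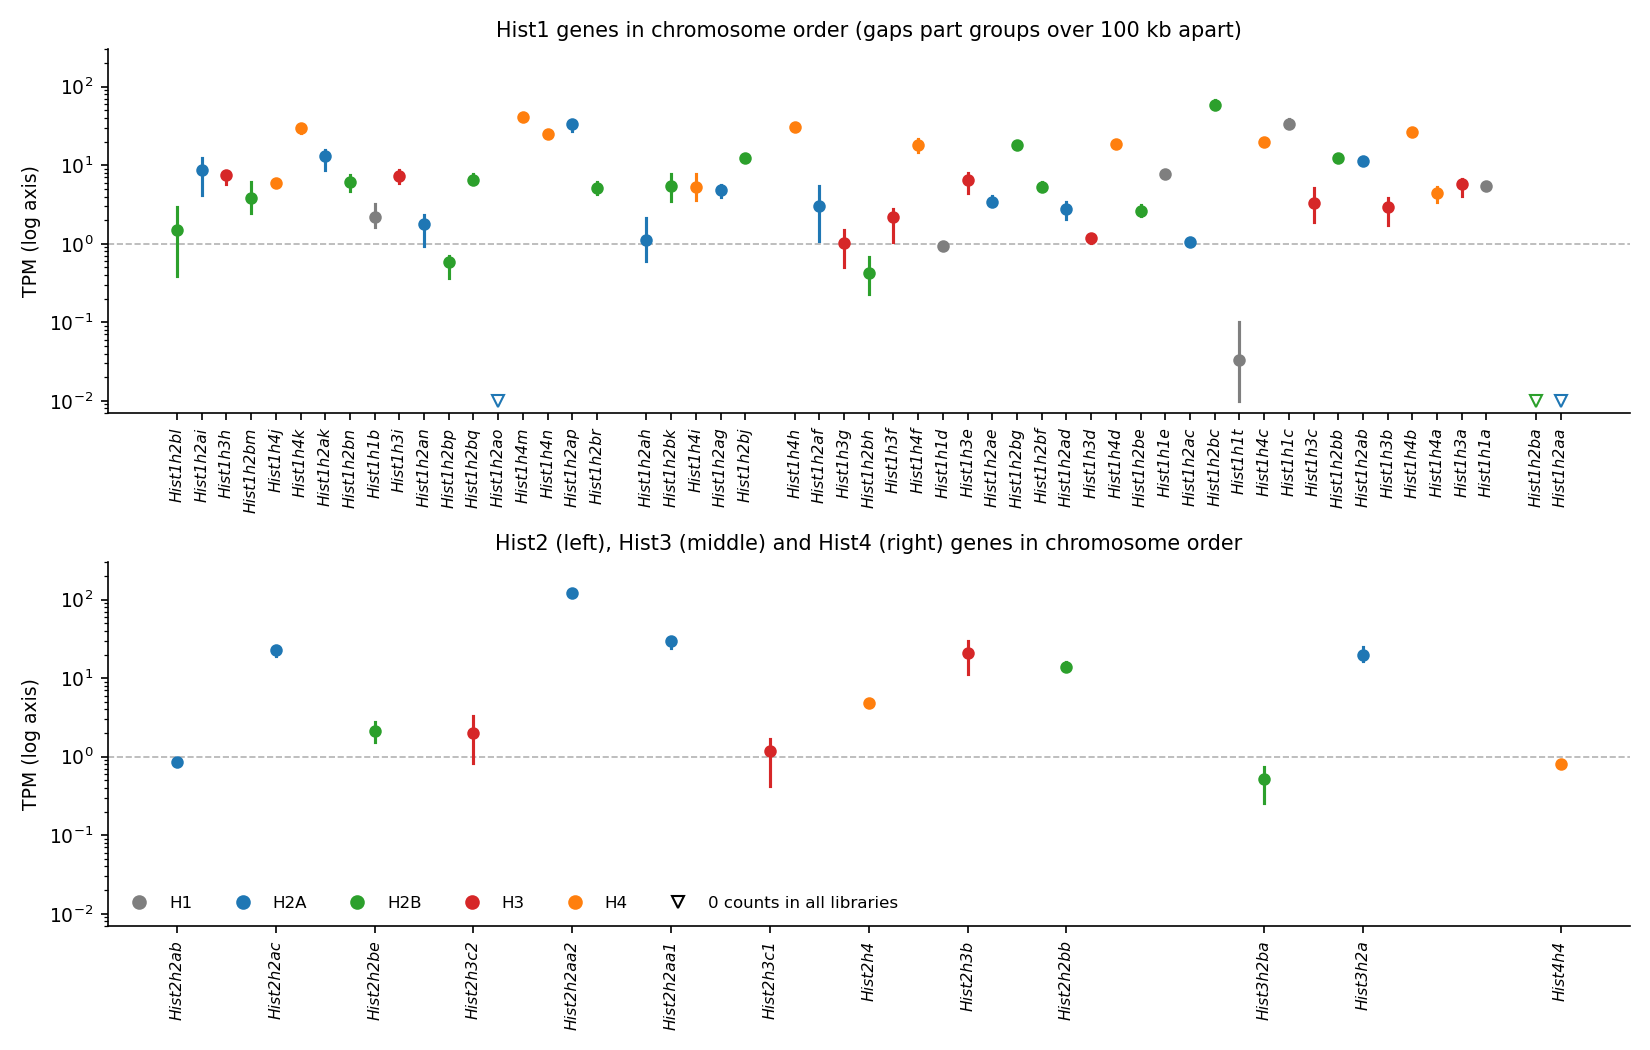
TPM of every replication-dependent histone gene in chromosomal order, on a log axis. Points are means over 3 libraries and lines their range, genes at 0 are drawn at 0.01, open triangles are genes with 0 counts in all libraries, and the dashed line marks 1 TPM; high and low genes alternate within the blocks.

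High and low genes were often next to each other. There were 12 pairs of an H2A and an H2B gene that start on opposite strands 176 to 306 bases apart and so share 1 stretch of promoter. In 10 of them both genes were counted, and these pairs had H2A higher in 5 and H2B higher in 5. The order was the same in all 3 libraries for 10 of 10 pairs by TPM and for 8 by counts. The higher gene exceeded the lower by more than 2-fold in 9 pairs by TPM, in 8 by counts and in 9 by the table made directly from the reads. The median ratio was 5.04 and the range 1.92 to 55.4. These are ratios between genes of different length and annotated end, and RNA stability was not measured. The posterior SD reached 78.6% of the count for Hist1h2br, 74.4% for Hist1h2ah, 41.0% for Hist1h2bl and 28.4% for Hist1h2an. In replicate 1 Hist1h2ah, Hist1h2bl and Hist1h2an had only 4.72, 2.66 and 6.73 counts. The ratios of the pairs that hold these genes are therefore uncertain.

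The widest gap was between Hist1h2bc and Hist1h2ac, whose starts are 251 bases apart. Hist1h2bc had 66.9, 51.4 and 56.2 TPM in replicates 1, 2 and 3, against 1.00, 0.98 and 1.17 TPM for Hist1h2ac. Hist1h2bc had 2826, 4498 and 5328 counts, against 103, 208 and 273 for Hist1h2ac, a ratio of 21.6. The values were far apart on either scale. In contrast, Hist2h2ac over Hist2h2be had a ratio of 10.5 by TPM, at 19.3, 22.7 and 25.98 TPM for Hist2h2ac against 2.77, 2.15 and 1.53 TPM for Hist2h2be. By counts its ratio was 1.40, since the annotated transcript of Hist2h2be is 2620 bases long and that of Hist2h2ac 520. Counts of Hist2h2ac were 250, 636 and 744 against 304, 482 and 379 for Hist2h2be, so replicate 1 had the opposite order. The other ratios by TPM were 6.49 for Hist1h2ap over Hist1h2br, 5.78 for Hist1h2ai over Hist1h2bl and 5.28 for Hist1h2bg over Hist1h2ae. They were 4.79 for Hist1h2bk over Hist1h2ah, 3.03 for Hist1h2an over Hist1h2bp and 2.52 for Hist1h2bj over Hist1h2ag. The smallest were 2.14 for Hist1h2ak over Hist1h2bn and 1.92 for Hist1h2bf over Hist1h2ad, so neither class led throughout. In the pairs not counted here, Hist1h2bq had 6.58 TPM beside Hist1h2ao at 0, and both Hist1h2ba and Hist1h2aa were at 0.

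**Figure D4:**
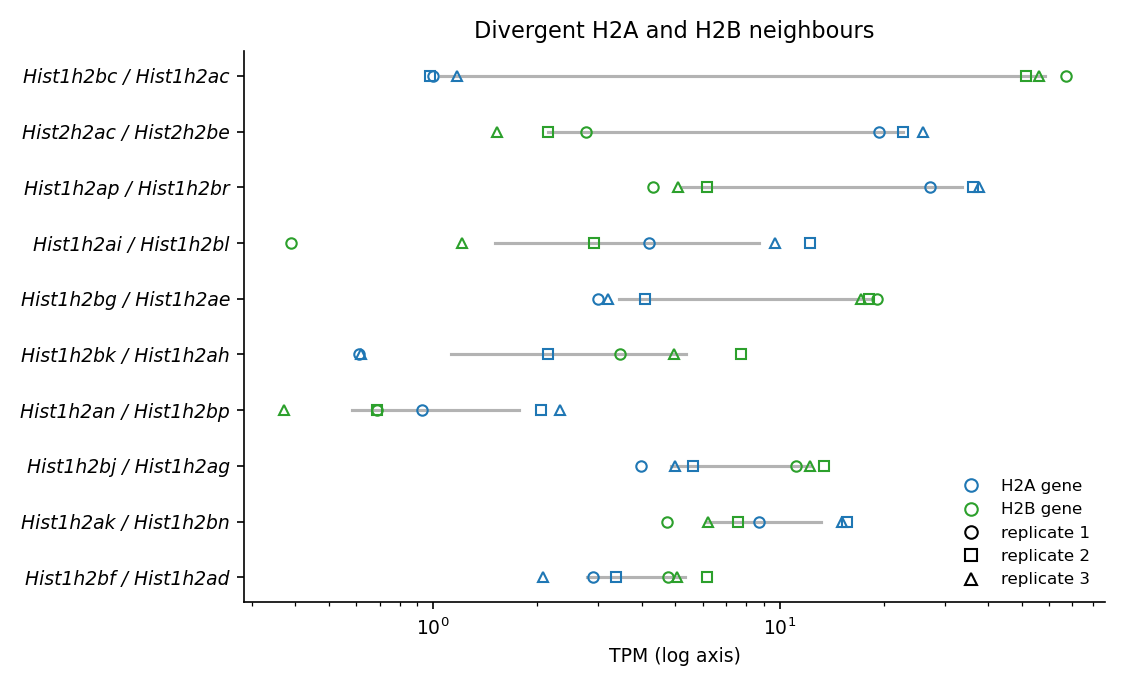
TPM of the divergent H2A and H2B neighbours on a log axis, with the higher gene named first in each label. Symbols are single libraries; Hist1h2bc lies above 50 TPM in every library while its neighbour Hist1h2ac lies near 1 TPM.

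The shared promoters of those 2 pairs are shown because their genes lay farthest apart by TPM, beside an H4 promoter and a silent one. By counts Hist2h2ac and Hist2h2be differed only 1.40-fold. The sequences are those RefSeq gives on GRCm38.p6, from 250 bases before to 50 bases after the annotated start, on the strand of the named gene. Motifs were searched at any distance from the start, so a match to TATAAA need not be a working TATA box. Capitals mark TATAAA (letters of the TATA box), CCAAT (bound by factor NF-Y) and ATTTGCAT (the octamer bound by OCT factors), on either strand:
Hist1h2ac, chr13:23683910-23684209, minus strand: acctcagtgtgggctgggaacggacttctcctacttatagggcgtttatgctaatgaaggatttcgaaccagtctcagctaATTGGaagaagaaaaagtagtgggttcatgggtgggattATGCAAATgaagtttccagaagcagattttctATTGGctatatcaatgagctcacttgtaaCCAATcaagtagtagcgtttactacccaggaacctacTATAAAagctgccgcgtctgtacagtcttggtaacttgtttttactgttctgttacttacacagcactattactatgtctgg
Hist2h2ac, chr3:96220831-96221130, minus strand: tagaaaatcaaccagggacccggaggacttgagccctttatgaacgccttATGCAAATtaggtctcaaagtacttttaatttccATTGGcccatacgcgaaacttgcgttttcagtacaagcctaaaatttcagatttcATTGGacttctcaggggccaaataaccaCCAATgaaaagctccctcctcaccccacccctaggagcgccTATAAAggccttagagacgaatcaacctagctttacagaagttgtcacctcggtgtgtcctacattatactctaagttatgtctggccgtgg
Hist1h4m, chr13:21811496-21811795, plus strand: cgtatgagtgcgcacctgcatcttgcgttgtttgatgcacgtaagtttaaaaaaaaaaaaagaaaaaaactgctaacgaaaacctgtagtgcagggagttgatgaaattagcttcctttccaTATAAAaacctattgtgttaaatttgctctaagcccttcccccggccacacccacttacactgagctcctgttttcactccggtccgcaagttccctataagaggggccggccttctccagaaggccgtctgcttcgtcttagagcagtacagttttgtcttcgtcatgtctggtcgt
Hist1h2aa, chr13:23934187-23934486, plus strand: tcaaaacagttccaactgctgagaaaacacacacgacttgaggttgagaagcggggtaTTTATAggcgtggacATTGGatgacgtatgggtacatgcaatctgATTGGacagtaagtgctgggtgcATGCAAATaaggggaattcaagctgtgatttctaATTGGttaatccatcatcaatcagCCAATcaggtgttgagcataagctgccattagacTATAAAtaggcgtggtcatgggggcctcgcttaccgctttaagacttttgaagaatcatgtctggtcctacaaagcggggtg
The first of these also holds the start of Hist1h2bc, at base 23684199 on the plus strand. Its TATA box lies 32 bases before the start of Hist1h2ac and the nearest CCAAT 69 bases before it. The silent Hist1h2aa window held all 3 motifs, and the Hist1h4m window held no CCAAT.

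A promoter was found in RefSeq for 62 of the 67 genes, and the windows of divergent pairs overlap. TATAAA occurred in 35 of 62 (56.5%), against 14.2% of 27025 promoters of the same length. CCAAT occurred in 53 of 62 (85.5%), against 37.9% of all promoters. It was in all 6 H1, 18 H2A, 16 H2B and 10 H3 windows, but in 3 of 12 H4 windows: those of Hist1h4a, Hist1h4c and Hist1h4d. The octamer ATTTGCAT occurred in 13 of 62 (20.97%), against 1.75% of all promoters, and those 13 were 7 H2A and 6 H2B genes. TTTCCCGC, a form of the E2F site, occurred in 1 of 62 (1.61%) against 1.11%. Matches are letters anywhere in these windows, on either strand, and not measured binding.

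Replacement histones gave a different balance in each class. For H3, the replication-dependent genes summed to 61.9 ± 20.997 TPM and the replacement genes to 477 ± 78.1 TPM, a ratio of 0.069, 0.186 and 0.153 in replicates 1, 2 and 3. H3f3a had 311, 254 and 251 TPM. H3f3b, which encodes the same replacement protein, had 254, 177 and 178 TPM. Each of them was above the sum of all clustered H3 genes in every library. For H2A the clustered genes summed to 280 ± 26.8 TPM and the replacement and variant genes to 100 ± 3.69 TPM, a ratio of 2.41, 3.00 and 2.96. By counts, which are not divided by length, that ratio was 1.03. H2afz, the commonest H2A variant gene here, had 44.0 ± 1.01 TPM.

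For H1 the clustered genes summed to 49.9 ± 4.37 TPM and the replacement genes to 28.1 ± 9.03 TPM (SD, n = 3 each). H1f0, the linker histone typical of cells that no longer divide, made nearly all of the replacement RNA, with 38.02, 25.4 and 20.5 TPM in replicates 1, 2 and 3. Its highest TPM was in replicate 1, as was that of Hist1h1c. The sperm and egg linker genes H1fnt and H1foo had 0 counts. All 67 clustered genes over the 14 listed replacement genes gave ratios of 1.02, 1.46 and 1.45 by TPM in replicates 1, 2 and 3. The clustered sum includes H2B and H4, at means of 155 and 231 TPM, for which no replacement genes were listed. The ratio over all therefore does not compare matched classes. By counts it averaged 0.505, so the replacement genes were then higher even with H2B and H4 in the clustered sum.

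Genes that make and destroy histone messages were mostly present. Of 18 found, 16 had at least 1 TPM in every library and the median was 8.82 TPM. Slbp, the stem-loop binding protein, had 10.2, 7.97 and 7.35 TPM in replicates 1, 2 and 3. Npat, the scaffold for transcription at the clusters, had 2.42 ± 0.394 TPM. Lsm10, a U7-specific protein, had 13.5 ± 1.00 TPM, while its partner Lsm11 had 0.443 TPM. Cpsf3, the nuclease that cuts the message, had 12.7 TPM and Sympk, a scaffold of the cleavage complex, 23.3 TPM. Tut7, which adds uridines when histone messages are degraded, had 52.2, 26.8 and 32.2 TPM and Upf1, a helicase of that decay, 12.3 TPM.

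Chaperones carry histones to DNA. Of 16 listed, 15 had at least 1 TPM in every library, with a median of 16.1 TPM. Daxx, which deposits the H3 replacement protein, had 82.3, 35.5 and 39.2 TPM in replicates 1, 2 and 3. Nap1l1, a chaperone for H2A and H2B, had 28.1 ± 0.547 TPM. Chaf1a and its partners in replication-coupled assembly, Chaf1b and Rbbp4, were at 0.887, 2.62 and 14.95 TPM. Hira, which deposits the H3 replacement protein too, was at 5.76 TPM, so levels varied among chaperones of either route. Among 17 S phase genes, 10 had at least 1 TPM in every library and the median was 1.62 TPM. Pcna, the sliding clamp of DNA polymerase, was the highest at 72.7 ± 4.86 TPM, and Cdt1, which licenses replication origins, came next at 6.55 TPM. Rrm2, which makes deoxynucleotides, had 1.20 TPM, the cyclins Ccne2 and Ccna2 had 0.657 and 0.693 TPM, and Mki67 had 3.06 TPM. How many cells were in S phase was not measured.

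The libraries differed from each other. Expected counts of each gene were tested for differences between the 3 libraries beyond counting error, with a chi-square test after TMM scaling by edgeR and Benjamini-Hochberg adjustment over 12515 genes. Of the 60 histone genes tested, 54 differed, against a background of 71.5%. The 6 that did not were Hist1h2bg, Hist4h4, Hist1h3d, Hist2h2ab, Hist1h2bp and Hist1h2be. Such p-values measure only the spread between these libraries. Without replicate 1, 27 of 62 histone genes differed, against 40.4% of all genes. The median biological coefficient of variation, edgeR's estimate of relative spread beyond counting error, was 0.308 for histone genes and 0.172 over all genes. These medians were not matched for count or for how surely reads were assigned.

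Most of the difference was a lower level in replicate 1. Replicate 1 minus the mean of replicates 2 and 3, in log2 CPM (counts scaled to library size), had a median of -0.52 over the histone genes and -0.01 over all genes. It was below 0 for 54 of 60 histone genes, against 51.7% of all genes. Replicate 1 was the lowest library for 49 of 60, against 42.3%, and the highest for 5, against 39.8%. The level was more than 2-fold lower in replicate 1 for 15 of 60, against 1.26% of all genes. By definition these 15 are part of the 54 below 0.

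The class that moved most was H3. All 12 H3 genes were below 0 with a median of -1.27, and 8 of them were among the 15. Medians were -0.56 for H2A, -0.49 for H2B, -0.31 for H4 and -0.26 for H1. Of the 15, H2A gave 4, H2B 3, and H1 and H4 none. Hist2h3b, with 130, 749 and 552 counts in replicates 1, 2 and 3, had a difference of -1.46 with an adjusted p = 7.69e-41 by that test.

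The 5 genes with the largest variation were Hist1h2af, Hist2h3c1, Hist2h3c2, Hist1h2ai and Hist1h2bh. Hist1h2af, an H2A gene, had 1.09, 5.39 and 2.69 TPM in replicates 1, 2 and 3 and a coefficient of 0.601. Hist2h3c1, an H3 gene, had 0.42, 1.69 and 1.40 TPM and a coefficient of 0.539, but it has no 100-base stretch of its own, sharing them with Gm20634, and its read-based count was near 0 in replicates 1 and 3. Hist2h3c2, another H3 gene, had 0.82, 3.25 and 1.97 TPM and 0.533. All of these were lowest in replicate 1. Hist1h2ai, an H2A gene, had 4.20, 12.2 and 9.71 TPM and 0.493. Hist1h2bh, an H2B gene, had 0.23, 0.67 and 0.37 TPM and 0.479. Their adjusted p-values in the chi-square test ran from 9.56e-19 to 2.38e-06. These genes were picked for their spread between the same libraries, so the p-values add no support.

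A few genes ran the other way. Hist1h4i, with 7.69, 3.66 and 4.61 TPM in replicates 1, 2 and 3, was higher in replicate 1 by 0.61 on the log2 scale. Hist2h2be, with 2.77, 2.15 and 1.53 TPM, was higher by 0.34, and Hist3h2a, with 24.6, 16.7 and 17.0 TPM, by 0.28. These were the 3 largest positive differences, and each differed between libraries in the chi-square test. That test used the same counts they were picked on, so it adds no support. All 3 have annotated transcripts of 727 bases or more.

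Transcript length and base composition moved with the difference. The 44 histone genes of up to 1000 bases had a median of -0.62 and the 16 longer ones -0.24. Other protein-coding genes had a median of -0.07 at up to 450 bases, -0.18 from there to 700 bases, -0.14 to 1000 bases and 0.09 above 5000 bases. In the bin from 450 to 700 bases, 21 histone genes had -0.62. By GC content of the transcript, other protein-coding genes had medians from 0.12 at up to 45% to -0.61 above 65%, where there were 27. Histone genes had -0.24 in the lowest of these bins, with 3 genes, and -1.13 in the highest, with 9. Within their GC bin, 50 of 60 histone genes were below the median of the other genes, among them 12 of 12 H3 genes and 12 of 13 H4 genes. The parts of GC content and length in the difference between libraries were not tested. Nuclear RNAs moved the other way, with a median of 3.40 over 5 genes. They ran from 2.25 for Firre to 6.15 for Xist, which had 32.6, 0.42 and 0.35 TPM in replicates 1, 2 and 3. S phase genes had a median of -0.15, with 13 of 17 below 0. The part of these in the histone difference was not tested either.

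**Figure D5:**
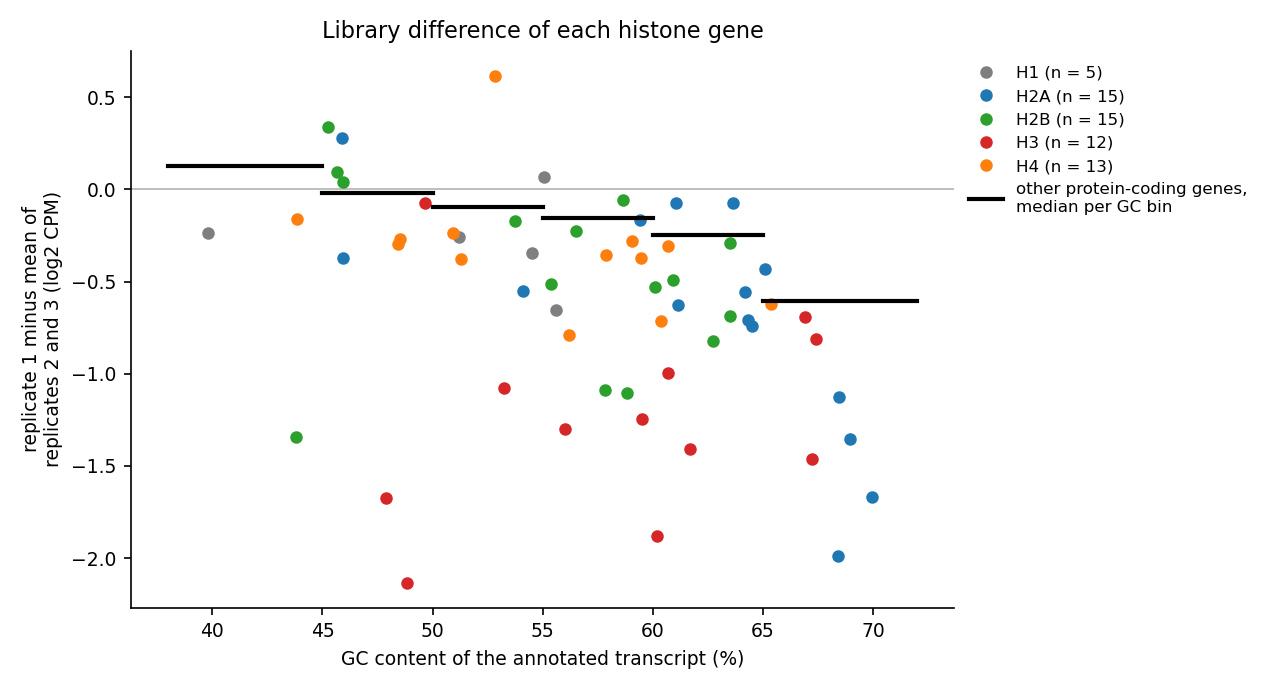
Replicate 1 minus the mean of replicates 2 and 3, in log2 CPM, against the GC content of each histone gene's transcript. Points are the 60 genes tested, coloured by class, and black lines are medians of other protein-coding genes per GC bin. The H3 genes all lie below 0 and below the black line of their bin.

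The 2 deposited tables were on different scales. As deposited, TPM differed by more than 2-fold in 43 of 57 histone genes (75.4%), all higher in the alignment-based table, against 62.0% of 9462 protein-coding genes. After both were rescaled to nuclear-encoded protein-coding genes, 1 of 63 histone genes differed by 2-fold, Hist2h3c1, against 4.02% of 10957 genes. The rescaled family sum was 2108, 2922 and 2884 TPM in the alignment-based table and 2135, 2995 and 2822 TPM in the table made directly from the reads. Before rescaling, the largest differences among genes at 5 TPM or more were for Hist1h2bq, Hist2h2aa2, Hist2h3b, Hist1h2br and Hist1h2ap, at 2.58 to 2.97 times.

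Counts also differed between the tables. The read-based count was more than 1.5 times the alignment-based count in 6 of 56 histone genes (10.7%), against 2.3% of protein-coding genes. All 6 belong to the genes whose annotation stops at the stop codon, of which 10 had enough counts, and none to the other kinds of 3′ end. In the opposite direction, Hist2h3c1 had 0, 68.5 and 0.0052 read-based counts in replicates 1, 2 and 3, against 30.4, 254 and 231 alignment-based counts. Hist1h4k had 266, 577 and 531 read-based counts in replicates 1, 2 and 3, against 104, 305 and 269 alignment-based counts. Hist1h2ak had 153, 499 and 479 read-based counts, against 63.3, 257 and 239. The read-based count was the higher in each library for both genes, and the other genes were Hist1h2ai, Hist1h2br, Hist1h2bn and Hist1h3i. For short transcripts the length left for a fragment is small: Hist1h2br, of 381 bases, had effective lengths of 146, 164 and 141 bases, so its TPM depends strongly on the fragment length used.

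Annotated neighbours on the same or opposite strand could share reads with some members. Hist2h2aa1 and Hist2h3c1 overlap Gm20634, at 2.94 TPM, and Hist1h1e overlaps Hist1h2be. Hist3h2a overlaps Trim17 on the same strand, at 0.117 TPM. Opposite to Hist3h2a lies Gm44313, annotated as a miRNA, at 34.7 TPM. Another annotated miRNA, Gm44346 at 7.15 TPM, lies opposite to Hist1h2an. No source used here gives the strand setting of the counting, so reads from the opposite strand cannot be told apart at Hist3h2a or Hist1h2an. Of members with more than 1 transcript, Hist1h2bq had 75.3%, 79.8% and 81.1% of its TPM on a 381-base transcript in replicates 1, 2 and 3. Those shares rest on an even division of reads with the 381-base transcript of Hist1h2br. Hist1h2be had 95.8%, 86.9% and 98.6% on a 2480-base transcript, which has a poly(A) signal.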

How the data were processed

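Total RNA of the cytosolic fraction was sequenced in 3 libraries of 1 group. In the gene and transcript tables the authors deposited expected counts, which need not be whole numbers. Per the notes with the files, reads had been aligned to the transcriptome of mm10 under GENCODE M21, and the columns have RSEM's names. TPM in those tables, as deposited, scale each library to a fixed total. Each count's posterior SD and the TPM bounds are the authors' deposited signal values on the scale of counts and TPM, and a deposited percent gives each transcript's part of its gene. A further deposited table, made directly from the reads, holds estimated counts and TPM under kallisto's column names. No source used here gives tool versions, strand setting or filters, and FPKM was not used.

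From these, rounded counts were tested between libraries with a chi-square test on TMM library sizes (edgeR 4.0.16, R 4.3.3) and adjusted over 12515 genes passing filterByExpr. In counts simulated with counting error only, the script recovered 47 of 50 genes changed 2-fold and called 15 of 12315 unchanged genes. That checks the code and gives no error rate for the real libraries. Their common biological coefficient of variation was 0.235, a spread the simulation left out. Unnamed entries (139733, 71391 and 47024 counts in replicates 1, 2 and 3) stayed out. Sequence features came from GENCODE M21 transcripts and RefSeq promoters (GRCm38.p6), with 31- and 100-base stretches compared over all transcripts. Library totals were 32108408 to 57117456 expected counts, and limits cover counting error only. Per-library values are given for the 15 highest genes, the highest of each class and cluster, testis genes, the 5 most variable and the 5 that differed most between tables. Members, lists and rules were chosen with earlier results of these data known. Alternatives covered thresholds, tables, scaling, filters and leaving out each replicate.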

Additional observations from a re-analysis of the deposited data

Results flagged for a closer look

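Hist3h2bb-ps, a processed pseudogene of an H2B gene on chromosome 11, has no annotated protein-coding transcript and so stayed outside the 67 genes. It drew attention as a signal in data that no comparison above used. It had 2.30, 2.09 and 1.56 TPM in replicates 1, 2 and 3, a mean of 1.98 TPM, from 24, 48 and 35.8 expected counts. Hist1h2aj and Hist1h2al, also outside the rule, had 0 counts in all libraries.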

How the results depend on the processing

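Of 104 values recomputed under other settings, 78 stayed within the limits set for a change and 26 moved. Detection gave 28 genes at 5 TPM. The summed level was 350 TPM in the table made directly from the reads and 2638 TPM after rescaling to protein-coding genes. The share of the 3 highest genes was 24.8% in the table made from the reads and 26.4% by counts. By counts the shares were 18.6% for H1, 30.6% for H2A, 24.3% for H2B, 20.1% for H4, 20.7% for Hist2, 10.2% for Hist3 and 0.584% for Hist4. In the table made from the reads Hist1 made 71.3% and Hist2 26.2%. Ratios to replacement genes by counts were 1.40 for H1, 1.03 for H2A, 0.043 for H3 and 0.505 over all, where TPM had given 1.31. The ratio over all counts H2B and H4 among the clustered genes only, so its turn is not one between matched classes. Mean ratios of H1 and H2A stayed above 1, and that of H3 below 1, on both scales. By counts H2B was above H4 and H1 above H3, the opposite of their order by TPM. Genes differing between libraries numbered 27 to 48 when each replicate was left out, with the lowest count without replicate 1, and 53 of 60 with DESeq2 size factors. Between tables, 26 of 36 genes of at least 5 TPM differed, and 26 to 54 when each replicate was left out, with the lowest count without replicate 3.

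Some alternatives were chosen after seeing the data. Among genes with a posterior SD of at most 5% of the count, 32 of 36 differed between libraries and the median difference of replicate 1 was -0.36, and for transcripts over 1000 bases it was -0.24. After rescaling both tables, 1 of 63 genes differed between them, and 0 of 37 with such a posterior SD. The cause of these changes was not tested, other than fewer genes entering. No paired analysis was possible because there is a single group. Depth limits Hist1h1t, Hist3h2ba and the genes at 0 counts, and shared sequence limits Hist1h2br, Hist1h2bq and Hist2h3c1. Both limit Hist1h2ah, Hist1h2bl and Hist1h2an.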
